A study of Mus musculus with 19 samples.

Results

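Leukocytes move, adhere and engulf by coupling integrin receptors in the membrane to the actin cortex beneath it. The genes described here encode 10 parts of that machinery, namely the integrin chains Itgb2 and Itgam, the phosphatase CD45 (Ptprc), the membrane linker moesin (Msn), the actin regulators plastin-2 (Lcp1), coronin-1A (Coro1a) and WASP (Was), and the GTPase module of Dock2, Rac2 and Arhgdib. All 10 were found among the 48709 genes of the count tables and passed the filter on low counts, as did 19286 genes in all. The genes were selected on these same libraries, because Msn, Itgb2, Lcp1, Dock2 and Ptprc were highly connected in a co-expression module whose level differed between the groups. Their group differences and their co-variation are therefore given as a description.

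The libraries were made from RNA of hippocampal CA1 tissue, dissected from male wild-type C57B/6J mice. All 3 groups had received lipid nanoparticles in the dorsal hippocampus before water maze training. Young mice of 3 months (n = 6) and old control mice of 16.5 months (n = 6) received control oligonucleotides, and old anti-miR-mix mice of 16.5 months (n = 7, also called treated) received inhibitors of 3 microRNAs (miR-148a-3p, miR-181a-5p, miR-146a-5p). No young group received the inhibitors, no group went without an injection, and the cells that took up the particles were not sorted from the tissue. Library titles in both control-injected groups also begin with the name of the mix, so groups were assigned by description and by the injections the study gives.

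Integrins of the beta-2 family are confined to blood-derived and resident immune cells, and in brain tissue without bleeding or infiltration their main source is microglia, the resident macrophages. Engagement of these receptors recruits exchange factors such as DOCK2, which load Rac2 with GTP, and Rac then drives branching of actin through the WAVE and WASP complexes. Dissociation inhibitors such as the product of Arhgdib hold inactive Rac-type GTPases in the cytosol, and ERM proteins such as moesin tie membrane receptors to actin.

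The inhibitors and their targets are shown because the old groups differed by design in the injected oligonucleotides. RefSeq mature sequences (GRCm38.p6) follow, with the seed (bases 2 to 8 from the 5′ end) in capitals. The 3 seeds differ from one another.
miR-146a-5p: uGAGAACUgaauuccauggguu
miR-148a-3p: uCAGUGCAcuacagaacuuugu
miR-181a-5p: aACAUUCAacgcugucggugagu

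The mature sequences lie at chr11:43374435-43374456 (miR-146a-5p, minus strand), at chr6:51269829-51269850 (miR-148a-3p, minus strand) and, for miR-181a-5p, at chr1:137966468-137966490 and chr2:38852741-38852763 (plus strand). The injected inhibitors, as listed by the study, were reverse complements of 19 to 21 bases of these RNAs, with the bases that face the seed in capitals. The control oligonucleotide of 19 bases is shown beside them.
inhibitor of miR-146a-5p: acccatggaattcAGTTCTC
inhibitor of miR-148a-3p: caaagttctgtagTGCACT
inhibitor of miR-181a-5p: actcaccgacagcgtTGAATG
negative control: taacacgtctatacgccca

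Exact matches to all 7 bases of each of the 3 seeds were then sought in the 3′UTR of the coding transcript with the longest coding sequence. Shorter matches, other transcripts and coding sequences were not searched, so targets of other kinds would be missed. Only Arhgdib, Rac2 and Dock2 held a match, 1 each. Over the 15351 tested genes with such a 3′UTR, 11% held the match for miR-146a-5p, 13.4% that for miR-148a-3p and 16.4% that for miR-181a-5p, against 1 of 10 members for each. The windows of 29 bases around the matches are shown with the match in capitals. A match is a description of letters, and binding was not measured.
Arhgdib, miR-146a-5p, base 46 of the 3′UTR: cccaccagaagAGTTCTCccgaccatgtt
Rac2, miR-148a-3p, base 903 of the 3′UTR: cagagagaggcTGCACTGtggctggctgt
Dock2, miR-181a-5p, base 235 of the 3′UTR: caagtgcccaaTGAATGTtctccccagca

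The libraries held 26653511 to 38908947 reads assigned to genes, and the members were covered by 28 reads (Was in a young library) to 3026 reads (Coro1a in an old anti-miR-mix library). Old control replicates 5 and 6 were nearly alike (chi-square per degree of freedom of 2.18, against 6.10 for the next closest pair). The deposited log2 table had been adjusted for a number from 1 to 4 per library whose origin was not given, here called the processing group. Processing group 3 held 2 young, 3 old anti-miR-mix and 0 old control libraries. Tissue identity was checked with CA1 pyramidal markers, which summed to 649 to 969 CPM (reads scaled to a common library size), against 30.5 to 89.3 CPM for dentate granule markers. In bulk tissue, fewer cells of a type and less RNA per cell cannot be told apart.

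Among the receptors, Itgb2 had the largest differences. It encodes the beta-2 chain (CD18) shared by the leukocyte integrins and lies at chr10:77530252-77565708 on the plus strand (ENSMUSG00000000290). Its level was 2.33, 2.95 and 3.29 log2 CPM (lowest, median and highest) in young libraries. In old control libraries it was 3.11, 3.30 and 3.75, and in old anti-miR-mix libraries 3.63, 4.41 and 4.58. All 7 old anti-miR-mix libraries lay above every young library, and 6 of 7 lay above every old control library, while 4 of 6 old control libraries exceeded all young ones. The log2 fold change was 0.47 ± 0.18 (SE) for old control against young, 0.86 ± 0.17 for old anti-miR-mix against old control and 1.33 ± 0.17 for old anti-miR-mix against young, the last a fold of 2.52.

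Its partner Itgam encodes the alpha-M chain (CD11b) of the complement receptor on myeloid cells, at chr7:128062640-128118491 on the plus strand. Young libraries had 2.91, 3.33 and 3.76 log2 CPM (lowest, median, highest). Old control libraries had 3.45, 3.54 and 3.87, and old anti-miR-mix libraries 3.52, 3.92 and 4.13. The 3 groups overlapped, with young replicate 3 within the old control range. The differences were 0.30 ± 0.13, 0.27 ± 0.12 and 0.56 ± 0.12 (log2, SE) for age, for treatment and for treated old against young. Itgam shares 68.67% of its exon length with the model gene Gm49368 on the same strand, which had a median of 0 reads, so reads from the shared exons may not have been assigned and the level of Itgam is uncertain.

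CD45, encoded by Ptprc (chr1:138062861-138175708, minus strand), is the receptor tyrosine phosphatase found on all nucleated blood cells and on microglia, where it sets the activity of Src family kinases. Its level in young libraries was 2.46, 2.96 and 3.22 log2 CPM (lowest, median, highest). Old control libraries gave 3.03, 3.26 and 3.72, and old anti-miR-mix libraries 3.54, 4.24 and 4.54. Every old anti-miR-mix library exceeded every young one, and 5 of 7 exceeded every old control. The log2 fold change was 0.43 ± 0.17 (SE) with age, 0.78 ± 0.16 with treatment and 1.21 ± 0.17 for treated old against young.

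Moesin links receptors to the cortical actin. Msn (chrX:96096042-96168552, plus strand) gave 5.05, 5.37 and 5.64 log2 CPM (lowest, median, highest) in young libraries. It gave 5.40, 5.48 and 5.83 in old control and 5.56, 5.98 and 6.31 in old anti-miR-mix libraries. Old anti-miR-mix replicate 1 fell within the young range and the other 6 lay above it. The differences were smaller than those of the receptors Itgb2 and Ptprc, at 0.20 ± 0.11, 0.38 ± 0.11 and 0.58 ± 0.11 (log2, SE) in the same order of comparisons.

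Lcp1 encodes plastin-2, which bundles actin filaments in haematopoietic cells (chr14:75131101-75230842, plus strand). The medians were 3.75 log2 CPM in young, 3.90 in old control and 4.55 in treated libraries. The ranges were 3.48 to 4.06, 3.78 to 4.33 and 3.99 to 4.91. Old anti-miR-mix replicate 6 was the lowest of its group and lay within both other ranges. The log2 fold changes were 0.24 ± 0.14 (SE), 0.45 ± 0.13 and 0.69 ± 0.13.

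Coro1a stood apart from the other 9 genes. Coronin-1A binds actin and the Arp2/3 complex and is required for T cell survival, and it is also made by neurons. The gene lies at chr7:126699773-126707787 on the minus strand. Its level was 6.02, 6.10 and 6.15 log2 CPM (lowest, median, highest) in young libraries. Old control libraries had 6.02, 6.09 and 6.29, and old anti-miR-mix libraries 5.84, 6.17 and 6.40. The old anti-miR-mix libraries spread to both sides of all young libraries, with 4 of 7 above them and replicates 2 and 7 below them (5.89 and 5.84). The fitted differences were 0.03 ± 0.07, 0.01 ± 0.07 and 0.04 ± 0.07 (log2, SE).

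WASP, encoded by Was (chrX:8081453-8090498, minus strand), activates Arp2/3 in blood cells. It was the member with the fewest reads, 28 to 97 per library. Young libraries had 0.10, 0.57 and 1.25 log2 CPM (lowest, median, highest). Old control libraries lay close together at 0.71, 0.85 and 0.94, and old anti-miR-mix libraries had 1.03, 1.28 and 1.64. All 7 old anti-miR-mix libraries were above all old controls, but the young range spanned all old control libraries and 3 of the old anti-miR-mix libraries. The log2 fold changes were 0.15 ± 0.17 (SE), 0.52 ± 0.15 and 0.68 ± 0.16.

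Dock2, the haematopoietic exchange factor for Rac (chr11:34226815-34783892, minus strand), gave 2.59, 2.82 and 3.32 log2 CPM (lowest, median, highest) in young libraries. The values were 2.91, 3.13 and 3.53 in old control and 3.30, 3.84 and 4.09 in old anti-miR-mix libraries. Young replicate 3, the highest young value, lay above the lowest treated library, and 5 of 7 treated libraries lay above all young ones. The log2 fold changes were 0.31 ± 0.15 (SE), 0.55 ± 0.14 and 0.87 ± 0.15.

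Rac2 encodes the haematopoietic Rac GTPase, which the phagocyte oxidase also needs (chr15:78559167-78572783, minus strand). Its young values were 0.87, 1.62 and 2.03 log2 CPM (lowest, median, highest). Old control values were 1.53, 1.92 and 2.12, and old anti-miR-mix values 2.13, 2.61 and 3.07. The old anti-miR-mix libraries lay above all libraries of both other groups, although the lowest was next to the highest old control. The log2 fold changes were 0.31 ± 0.18 (SE), 0.70 ± 0.17 and 1.02 ± 0.17.

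Arhgdib, which encodes the haematopoietic GDP dissociation inhibitor of such GTPases (chr6:136923655-136941899, minus strand), showed another order. Young libraries had 2.87, 3.23 and 3.33 log2 CPM (lowest, median, highest). Old control libraries had 3.29, 3.59 and 3.73, and old anti-miR-mix libraries 3.55, 3.65 and 3.84. Here 5 of 6 old control libraries already exceeded all young libraries, and the old groups overlapped. The log2 fold change was 0.40 ± 0.08 (SE) with age, 0.09 ± 0.08 with treatment and 0.49 ± 0.08 for treated old against young. A stretch of 136 bases of its exons (7.967%) overlaps Pde6h on the other strand, and the library kit did not keep strand.

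**Figure D1:**
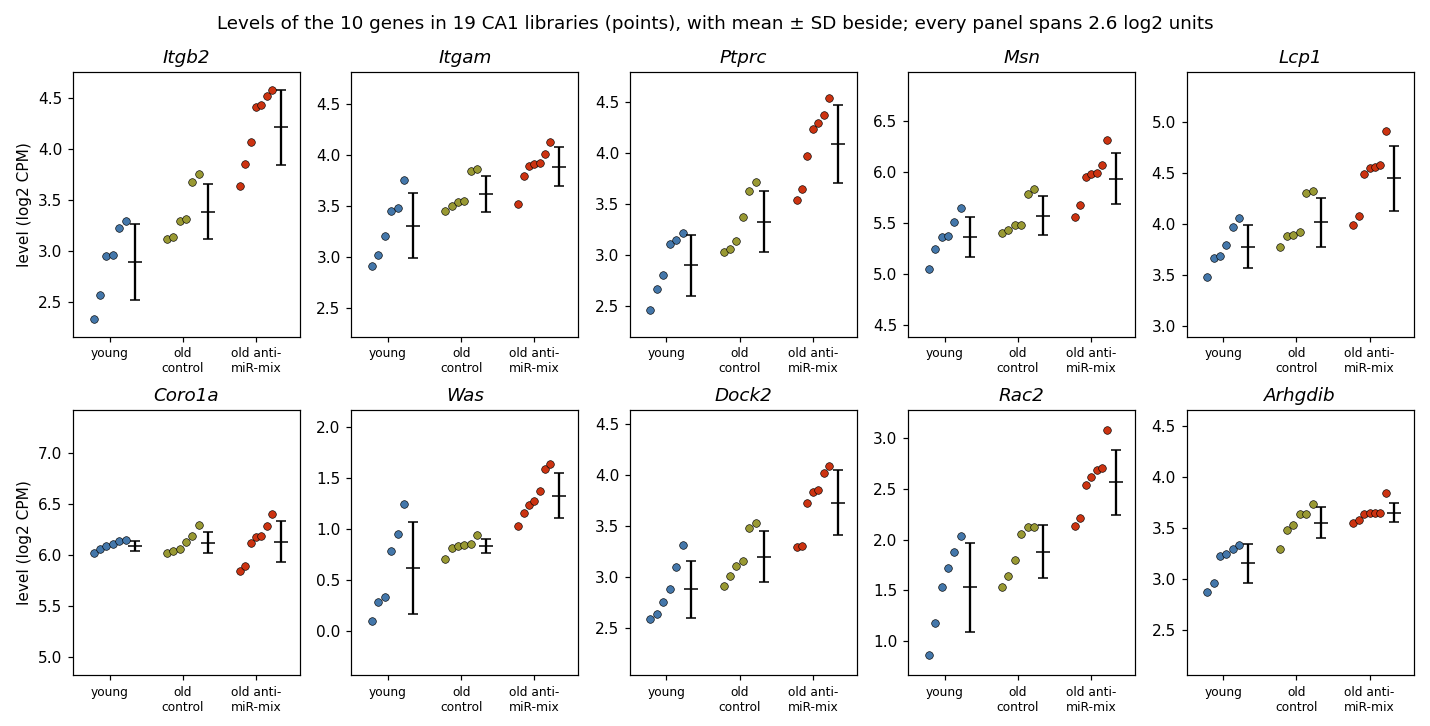
Level of each gene (y axis, log2 CPM) in the 19 libraries, by group on the x axis, with 1 point a library (6, 6 and 7 from left to right) and the mean ± SD beside them. Itgb2, Ptprc, Rac2 and Arhgdib separate old anti-miR-mix from young libraries, and Coro1a stays near 6.1 log2 CPM in all groups.

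In edgeR's quasi-likelihood test over all 19286 genes, with Benjamini-Hochberg adjustment and a threshold of 0.05, 1 of 10 members (Arhgdib) passed as higher with age, where 1.32% of all genes passed as higher. The groups did not overlap for 0 of 10 members, where 1.25% of all genes were higher without overlap. For old anti-miR-mix against old control, 2 of 10 members (Itgb2 and Ptprc) passed, against 0.669% of all genes, and Was and Rac2 did not overlap, against 0.425%. For old anti-miR-mix against young, 9 of 10 passed, Coro1a being the exception, against 4.57% of all genes, and Itgb2, Ptprc, Rac2 and Arhgdib did not overlap, against 1.79%. As the members were selected on these libraries, nothing is read from these counts.

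The 10 fitted differences were above 0 in each of the 3 comparisons. Their median log2 fold change was 0.31 with age, 0.49 with treatment and 0.68 for treated old against young, where the medians over all genes were 0.006, 0.000 and 0.003. The comparisons share samples: the old controls serve in the first and the second, the young libraries in the first and the last, and the treated libraries in the second and the last. Arhgdib had the smallest SE among the 9 genes other than Coro1a, and its difference of 0.40 with age was near that of Ptprc and Itgb2.

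**Figure D2:**
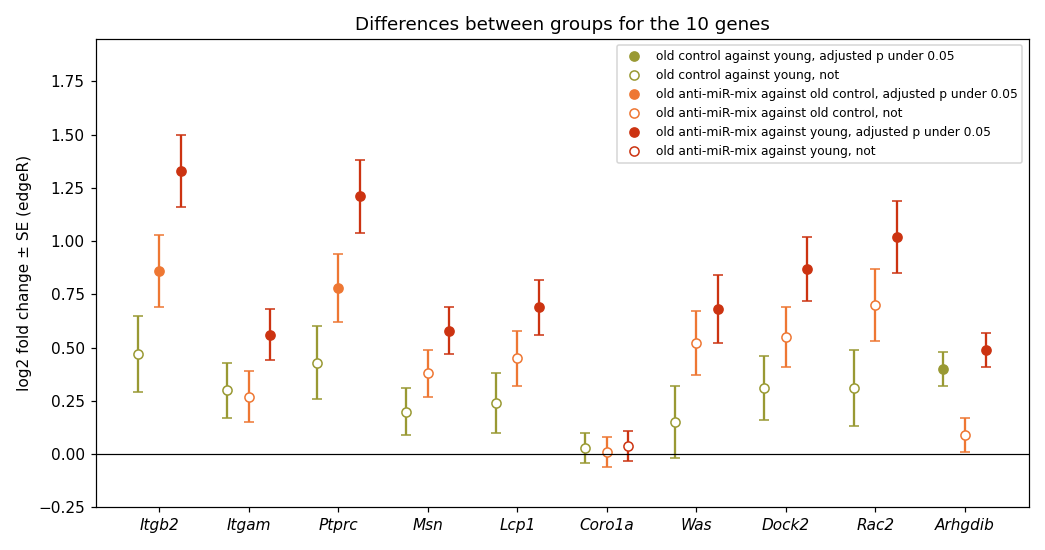
Log2 fold change ± SE of each gene (y axis) in the 3 comparisons (colours), with filled points for an adjusted p under 0.05 over all genes and open points otherwise. Itgb2 has the largest values, 0.47, 0.86 and 1.33, Coro1a lies on 0 in all comparisons, and Arhgdib is filled for age but near 0 for treatment.

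Processing group moved with the treatment comparison. Within groups 1, 2 and 4, which held both old groups, the median difference of the 10 members between old anti-miR-mix and old control was 0.28, 0.26 and 0.26 log2 units, against 0.49 in the pooled fit, and 9 of 10 members were higher in each. For Itgb2 the differences within these groups were 0.72, 0.53 and 0.33, and for Ptprc 0.33, 0.43 and 0.55. Each rests on few libraries. In processing group 4 they compare 1 treated library with old control replicates 5 and 6, the nearly alike pair. With processing group as a factor in edgeR, 0 of 10 members and 9 of all 19286 genes passed for treatment at the adjusted threshold. An unadjusted p under 0.05 was found for 7 members with this factor, and for 2026 of all genes in the fit without it. For age, 5 members passed with the factor, where 223 to 897 of all genes passed over the alternative settings. Counting old control replicates 5 and 6 as 1 library also left 0 members for treatment (7 unadjusted) and 1 for age, where 33 and 305 of all genes passed. DESeq2 with all libraries called 4 members and 264 of all genes for treatment. The count of 9 members for treated old against young was the same in these settings.

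Within processing groups, the members' median difference between old control and young libraries was 0.53, 0.52 and 0.23 (groups 1, 2 and 4). Between old anti-miR-mix and young libraries it was 0.66, 0.89, 0.69 and 0.49 in groups 1 to 4. Each of these rests on 1 to 3 libraries a group. The treated libraries of processing group 3, which has no old control, had the 3 highest mean levels of the members, as described next.

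The members varied together between libraries, apart from Coro1a. Each member was expressed as a z score over the 19 libraries and the 10 scores were averaged. The mean z was lowest in young replicate 1 (-1.62) and young replicate 6 (-1.35), and highest in old anti-miR-mix replicate 4 (1.54), followed by replicates 3 (1.15) and 5 (1.07). Young replicate 1 had the lowest value of 7 members, and old anti-miR-mix replicate 4 the highest value of 7. Young replicate 3 (-0.01) stood above the other young libraries and above old control replicates 1, 2, 5 and 6, which ranged from -0.43 to -0.27. Old control replicates 3 and 4 (0.30 and 0.32), both of processing group 2, reached the level of old anti-miR-mix replicates 1 and 6 (0.34 and 0.28).

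Over the 19 libraries, Pearson's r between the log2 CPM of 2 members had a median of 0.85 over 45 pairs, and 26 pairs exceeded 0.8. The closest pair was Msn and Lcp1 (0.99), the membrane linker and the actin bundler. Differences between the groups add to such values, and all pairs share the same libraries and depths. After group means were removed the median was 0.61, with 0.96 for Msn and Lcp1, and after processing group means were removed as well it was 0.57. The r of a member with the mean z of the other 9 was 0.92 to 0.98 for Msn, Itgb2, Itgam, Lcp1, Dock2, Ptprc and Rac2, 0.85 for Was, 0.78 for Arhgdib and -0.04 for Coro1a. With group means removed these became 0.86 to 0.95, 0.62, 0.53 and -0.24. In these settings Msn, Itgb2, Itgam, Lcp1, Dock2, Ptprc and Rac2 formed a tight block, and Was and Arhgdib followed it loosely. The split was less clear once processing group means were removed as well. The r was then 0.68 (Itgam) to 0.87 (Itgb2) within the block, 0.57 for Was and 0.62 for Arhgdib. Coro1a did not follow the block in any of these settings (-0.08 in the last).

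**Figure D3:**
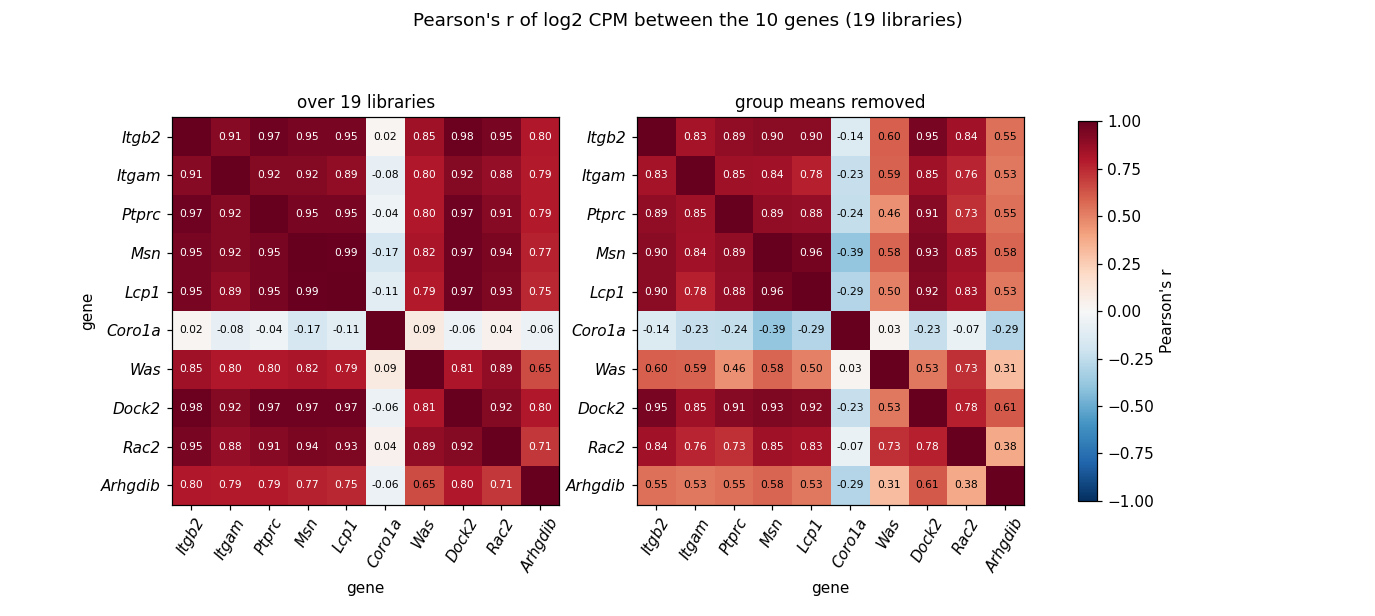
Pearson's r of log2 CPM for each pair of the 10 genes over 19 libraries (left) and with group means removed (right), on a colour scale from -1 to 1. Msn and Lcp1 are at 0.99 and 0.96, and the row of Coro1a is near or below 0 in both panels, with -0.17 and -0.39 against Msn.

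To ask which cells' markers moved with the members, the levels of marker genes were summed in each library. The 13 microglial markers summed to 421 to 528 CPM in young, 522 to 604 CPM in old control and 587 to 777 CPM in old anti-miR-mix libraries. The log2 of this sum had an r of 0.95 with the members' mean z over the 19 libraries. Of the 13 microglial genes, 3 passed as higher with age, 4 with treatment and 12 for treated old against young. Over all genes, 1.32%, 0.669% and 4.57% passed as higher. The markers did not move equally, since for treatment the log2 fold change was 0.03 ± 0.08 (SE) for P2ry12 and 0.07 ± 0.09 for Tmem119, which mark resting microglia, and 0.63 ± 0.13 for C1qa, a complement component (edgeR adjusted p = 0.0259). The microglial list therefore moved in the same libraries as the members, and its part in the members' differences was not tested.

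**Figure D4:**
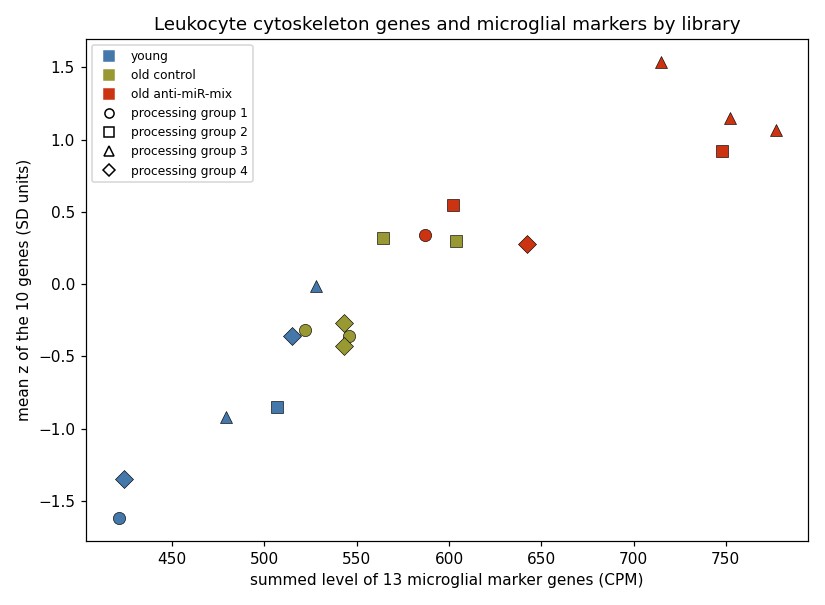
Mean z of the 10 genes (y axis) against the summed level of 13 microglial markers (x axis, CPM) in the 19 libraries, with colours for groups and symbols for processing groups. The points run from young replicate 1 (421 CPM, -1.62) to the old anti-miR-mix libraries of processing group 3 (715 to 777 CPM, 1.07 to 1.54).

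Relative to the mean log2 CPM of the microglial list, the members differed among themselves. In these relative levels, Itgb2 was higher by 0.56 in old anti-miR-mix than in old control libraries and by 0.83 than in young libraries. Ptprc was higher by 0.49 and 0.68, Rac2 by 0.41 and 0.53, and Dock2 by 0.26 and 0.35. Msn (0.09 and 0.07), Itgam (-0.01 and 0.08) and Lcp1 (0.16 and 0.17) moved nearly as the list did. Was was higher by 0.22 and 0.21. The relative level of Coro1a was lower in treated libraries, with differences of -0.27 and -0.47, and that of Arhgdib was lower than in old control libraries (-0.18) and level with young ones (-0.00). Over the 10 members the median relative difference was 0.19 for treatment, 0.19 for treated old against young and 0.09 for age. With Csf1r alone as the reference these were 0.15, 0.30 and 0.23.

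Markers of other leukocytes were sparse. With treatment, 0 of the 3 monocyte, 2 neutrophil and 6 T and NK cell markers tested passed in edgeR's quasi-likelihood test after adjustment, while 3, 1 and 1 of them were higher at an unadjusted p under 0.05, and DESeq2 called 1 monocyte marker. Over all genes, 2026 of 19286 had an unadjusted p under 0.05 with treatment in edgeR, in either direction. For treated old against young, edgeR called 1, 2 and 1 of these markers higher, where 4.57% of all genes passed as higher. The ranges of their summed levels overlapped between the groups. Monocyte markers (Ccr2, Ly6c2, Plac8 and Chil3) summed to 0.378 to 2.07 CPM in old control and 1.66 to 6.75 CPM in old anti-miR-mix libraries, and to 0.431 to 2.88 CPM in young ones. Neutrophil markers summed to 0.158 to 1.29 CPM in young, 0.298 to 2.94 CPM in old control and 0.971 to 5 CPM in old anti-miR-mix libraries, with at most 2 reads of Ly6g and 11 of Mpo in any library. T and NK cell markers summed to 1.51 to 3.33 CPM in young, 2.2 to 3.96 CPM in old control and 2.96 to 5.91 CPM in old anti-miR-mix libraries, with at most 3 reads of Ncr1. Old anti-miR-mix replicate 4, the library with the highest mean z, also had the highest monocyte, neutrophil and T and NK cell sums (6.75, 5 and 5.91 CPM).

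The log2 sums of these 3 lists had an r of 0.76, 0.76 and 0.84 with the members' mean z, below that of microglia. Single members differed in this. Msn and Rac2 each had an r of 0.89 with both the T and NK cell sum and the microglial sum. Lcp1 had 0.86 and 0.88, and the remaining members also had a lower r with the T and NK cell sum. Genes of border-associated macrophages (Mrc1, Cd163, Lyve1 and others) summed to 5.2 to 13.8 CPM in young, 5.87 to 7.54 CPM in old control and 5.32 to 12 CPM in old anti-miR-mix libraries, with an r of -0.01. B cell markers stayed at or below 1.03 CPM in every library. The part of these cells in the members' differences was not tested.

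Coro1a had an r of 0.04 with the microglial sum, 0.53 with the CA1 pyramidal sum and -0.42 with the sum of pan-neuronal markers. It was thus not aligned with either neuronal list in one direction, and the r with red blood cell genes was 0.54. Expressed per length (RPKM, which is CPM divided by the exon length in kilobases), Coro1a was by far the highest member, at 24.5 ± 0.849 RPKM (SD) in young, 25 ± 1.81 in old control and 25.3 ± 3.46 in treated libraries. Next came Msn at 6.55, 7.54 and 9.77 RPKM, Arhgdib at 5.2, 6.87 and 7.32, and Itgb2 at 2.47, 3.43 and 6.22. Ptprc was the lowest at 0.412, 0.555 and 0.952 RPKM. Its exon length, the union over all annotated transcripts, was 18313 bases, the longest of the members, so its rank depends on that length. In mean CPM it lay above Rac2 and Was in each group (7.55, 10.2 and 17.4, against 2.94, 3.66 and 5.97 for Rac2). The order of the 10 members by RPKM was the same in the 3 groups, with Itgam, Lcp1, Rac2, Dock2 and Was between Itgb2 and Ptprc. Neighbours whose means lay within 1 SD of each other included Msn and Arhgdib in old control libraries (7.54 ± 1.02 and 6.87 ± 0.713) and Dock2 and Was in young libraries (0.65 ± 0.133 and 0.645 ± 0.211).

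Many of these genes have a paralog that other brain cells use, which allows the leukocyte form to be compared with its relatives in the same libraries. Rac1, the general Rac, was at 38.3, 38.6 and 38.7 RPKM in the 3 groups, and its log2 fold change for treated old against young was 0.01 ± 0.03 (SE), against 1.02 ± 0.17 for Rac2. The share of Rac2 in the summed Rac family was 1.87% ± 0.511 (SD) in young, 2.33% ± 0.446 in old control and 3.74% ± 0.843 in treated libraries. All treated libraries (2.78% or more) lay above the others (2.73% or less).

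Arhgdib, Was, Lcp1 and Msn also had larger differences than their paralogs, whereas Coro1a (0.04 ± 0.07) did not. For treated old against young, the log2 fold change was 0.04 ± 0.04 (SE) for Arhgdia and 0.49 ± 0.08 for Arhgdib, 0.01 ± 0.06 for Wasl and 0.68 ± 0.16 for Was, and 0.02 ± 0.06 for Pls3 and 0.69 ± 0.13 for Lcp1. Of the other ERM genes, Ezr differed by 0.26 ± 0.07 (edgeR adjusted p = 0.0432) and Rdx by -0.08 ± 0.05, against 0.58 ± 0.11 for Msn. The Msn share of the ERM family was 13.2% ± 1.3, 15.2% ± 1.17 and 17.6% ± 1.46 (SD). Among 9 other DOCK genes only Dock8, itself an exchange factor of immune cells, differed by as much as 0.5 (0.57 ± 0.11, edgeR adjusted p = 0.00216).

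Of the integrin chains, Itgb1, the common beta chain, was at 18.6, 17.3 and 19.3 RPKM, and the share of Itgb2 in the pair was 11.6% ± 2.39, 16.4% ± 1.78 and 24.1% ± 3.66 (SD). The alpha chains shifted among themselves. Itgam made up 73.6% ± 4.04 of the summed Itgam, Itgal and Itgax in young, 72.9% ± 5.15 in old control and 53.6% ± 11.4 in old anti-miR-mix libraries. Itgax, which encodes CD11c, was at 0.259, 0.591 and 2.21 RPKM. In contrast, the 6 other coronins had differences for treated old against young between -0.25 ± 0.08 (Coro2a) and 0.09 ± 0.04 (Coro1c), and the Coro1a share of the family was 18%, 18.6% and 18.6%.

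**Figure D5:**
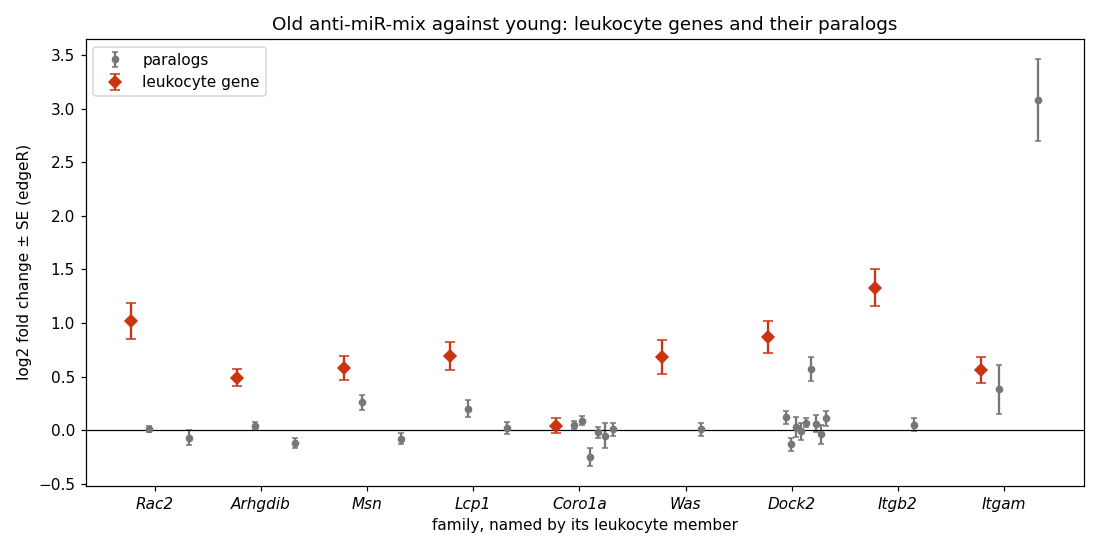
Log2 fold change ± SE for old anti-miR-mix against young (y axis) of 9 leukocyte genes (red diamonds) and their paralogs (grey points), by family on the x axis. Apart from Itgax at 3.08, Dock8 at 0.57 and Itgal at 0.38, the paralogs lie between -0.25 (Coro2a) and 0.26 (Ezr), while every leukocyte gene but Coro1a lies at 0.49 or above.

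The wider adhesion and actin machinery was examined with 13 lists of 121 further genes, of which 119 passed the filter (Selp and Sele did not). With age, 3 passed as higher (1.32% of all genes), namely Apbb1ip, Skap2 and Arhgap30, and 2 as lower (1.34% of all genes), Gsn and Fyn. With treatment, edgeR called 10 higher (0.669% of all genes) and 0 lower (0% of all genes). Of these list genes, 44 were higher and 2 lower at an unadjusted p under 0.05 in edgeR, where 2026 of all 19286 genes were below it in either direction. DESeq2 called 0 list genes lower. For treated old against young, 32 passed as higher (4.57% of all genes) and 1 as lower (1.63% of all genes). Median log2 fold changes over the 119 genes, taken with their sign, were 0.06, 0.06 and 0.08. With processing group as a factor in edgeR the count for treatment was 0 (34 unadjusted), and with old control replicates 5 and 6 as 1 library it was 4. Of all genes, 9 and 33 passed in these settings.

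Among the integrin chains, Itgax rose with treatment by 1.92 ± 0.35 on the log2 scale (SE, edgeR adjusted p = 0.0152), from 0.26, 1.61 and 2.16 log2 CPM in old control to 1.74, 3.65 and 4.15 in old anti-miR-mix libraries (lowest, median, highest). The 2 ranges overlapped, but no treated library overlapped the young range of -0.42 to 0.90. Itgb5, the vitronectin receptor chain, rose by 0.35 ± 0.06 (adjusted p = 0.0165) without overlap. Itgb3 did not pass for treatment but did for treated old against young (0.39 ± 0.11, adjusted p = 0.0285).

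Of the integrin activators and adaptors, Tln1 (talin), which activates integrins from the inside, rose with treatment by 0.25 ± 0.05 (edgeR adjusted p = 0.0159) and Plek (pleckstrin) by 0.50 ± 0.12 (adjusted p = 0.0493). Cyth4, an exchange factor for ARF GTPases, passed for treated old against young (0.72 ± 0.10, adjusted p = 0.000132). In all, 9 of 12 genes of this list passed as higher there, against 4.57% of all genes. Of the ligands and selectin partners, 3 of 9 passed in that comparison, namely Icam1 (0.74 ± 0.16), Selplg (0.37 ± 0.07) and Spn (1.52 ± 0.38, from 1 to 48 reads), and none with treatment.

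Of 15 DOCK, ELMO and VAV exchange factors, Vav1 rose with treatment by 0.51 ± 0.10 (edgeR adjusted p = 0.0239, no overlap) and Dock8 by 0.51 ± 0.11 (adjusted p = 0.0307). Of 6 GTPase-activating proteins of leukocytes, Arhgap45 rose by 0.50 ± 0.09 (adjusted p = 0.0115, no overlap) and Arhgap30 by 0.44 ± 0.09 (adjusted p = 0.032), and Arhgap9 passed for treated old against young (0.91 ± 0.17). Of 20 WASP family and Arp2/3 genes, Nckap1l, the haematopoietic subunit of the WAVE complex, rose by 0.42 ± 0.09 (adjusted p = 0.0329). Wasf2 (0.23 ± 0.05) and Wipf1 (0.35 ± 0.08) passed for treated old against young, and the other 17 did not pass in any comparison.

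Of 11 CD45 partners and Src family kinases, Fgr rose with treatment by 1.52 ± 0.32 (edgeR adjusted p = 0.0282), while Ptpn6 (1.00 ± 0.15) passed for treated old against young. Fyn, a Src kinase of neurons and lymphocytes, was lower with age (-0.15 ± 0.03, adjusted p = 0.0194). Capg, a filament capper of macrophages, passed for treated old against young (1.51 ± 0.21), and Gsn, a filament-severing protein that oligodendrocytes also make, was lower with age (-0.44 ± 0.08, adjusted p = 0.00551). Neither Arhgdia nor Arhgdig and none of 6 genes of actin and its monomer handling passed in any comparison.

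The genes outside the list whose levels were most like the members' mean z, among 15950 genes with at least 20 reads on average, were Naip2 (r of 0.979), Cyth4 (0.978), Hcls1 (0.977), Inpp5d (0.972) and Ctss (0.97), over 19 libraries. Naip2 is an inflammasome sensor, Hcls1 a haematopoietic cortactin-like protein, Inpp5d the phosphatase SHIP-1 and Ctss the protease cathepsin S. In all, 138 of these genes had an r over 0.9, and the median r was -0.05.

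Promoters were examined because 9 of the members moved with one another. RefSeq promoters (GRCm38.p6, 250 bases before to 50 after a start) matched 8 of 10 members with 13 starts, and Itgb2 and Rac2 had no entry. The word GAGGAAGT, a site type of the myeloid factor PU.1, was sought on both strands and found in 0 of 13 (3.2% of all 32851 promoters held it). The core GGAA of ETS factors, which GAGGAAGT contains, was in 13 of 13, but also in 96% of all promoters. The RUNX word TGTGGT was in 2 of 13 (Was and Arhgdib, 16.8% of all), TGCGGT in 0 of 13 (6.45%) and TATAAA in 2 of 13 (Ptprc and Arhgdib, 13.6%). At these shares, few of 13 promoters would hold the rarer words and nearly all would hold GGAA. The search was thus too small to tell whether these words set the members' promoters apart from others.

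The 100 bases before the start are printed for the members with a single listed start, and for both starts of Coro1a as the gene that did not follow the others, with GGAA on either strand (GGAA or TTCC) in capitals. Such a window held GGAA in 66.8% of all promoters.
Msn, chrX:96095945-96096044, plus strand: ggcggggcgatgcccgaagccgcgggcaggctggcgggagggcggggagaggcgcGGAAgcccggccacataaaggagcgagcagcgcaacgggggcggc
Itgam, chr7:128062540-128062639, plus strand: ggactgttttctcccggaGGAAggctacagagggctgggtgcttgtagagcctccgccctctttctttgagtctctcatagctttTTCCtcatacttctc
Dock2, chr11:34783906-34784005, minus strand: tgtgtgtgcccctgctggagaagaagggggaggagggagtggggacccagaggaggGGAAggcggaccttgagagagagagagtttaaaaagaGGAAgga
Was, chrX:8090492-8090591, minus strand: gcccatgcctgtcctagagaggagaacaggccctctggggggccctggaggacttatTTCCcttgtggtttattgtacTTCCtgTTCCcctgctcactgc
Coro1a, chr7:126704221-126704320, minus strand: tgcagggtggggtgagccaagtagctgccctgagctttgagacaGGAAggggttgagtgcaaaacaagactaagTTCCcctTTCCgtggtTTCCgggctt
Coro1a, chr7:126704817-126704916, minus strand: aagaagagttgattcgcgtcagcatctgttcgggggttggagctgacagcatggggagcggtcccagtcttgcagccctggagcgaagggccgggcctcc

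The windows of Msn, Itgam, Dock2 and Was held 1, 2, 2 and 3 GGAA words. The Coro1a starts held 4 and 0. Arhgdib, Lcp1 and Ptprc, with more than 1 listed start, are not among these windows. The starts of Arhgdib differed in the same way. GGAA lay at bases -95, -44, -30 and -16 from 1 of them, and was absent from the 100 bases before another. These counts therefore do not set Coro1a apart.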

How the data were processed

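The authors prepared libraries with the TruSeq RNA kit v2, which does not keep strand, sequenced single reads of 50 bases, aligned them to mm10 (GRCm38) with STAR (2.5.2b) and counted reads per gene with featureCounts of Subread (1.5.1), per the labels and the study's methods. The deposited raw counts were used. The deposited log2 table (18761 genes) equals log2(CPM + 1) after the removal of a slope on a number from 1 to 4 per library, and served as an alternative.

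Groups came from the sample descriptions. Whether each library was 1 mouse is not stated at each label, so p-values measure the spread between these samples. A gene was tested where 50% or more of the 19 libraries held 5 or more of its reads, with edgeR 4.0.16 (TMM factors, quasi-likelihood test, 3 groups in one fit, R 4.3.3), after tests on simulated data. CPM and log2 CPM (prior count 2) were computed from the counts, and RPKM with exon-union lengths of GENCODE. Alternatives were DESeq2 1.42.0, limma 3.58.1 on the deposited table, other scaling, no filter, 2 groups only, a replicate block, processing group as a factor or linear term, near-alike libraries as 1 and each library left out. Correlations between the deviations of same-numbered samples were low (-0.17 to 0.21), though some samples were closest to their own number.

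The members and lists were chosen with earlier results of these data known. Named list genes were those called in any comparison, at most 3 a list by adjusted p for treatment, plus paralogs, the 5 genes most like the members' mean z, and, chosen after their values were seen, Apbb1ip and Skap2 and the microglial genes P2ry12, Tmem119 and C1qa. Some list genes are not reported here.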

Additional observations from a re-analysis of the deposited data

Results flagged for a closer look

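Of 30 sets of values (10 members in 3 groups), 1 held a library far from the others of its group. Arhgdib in old anti-miR-mix replicate 4 was at 3.84 log2 CPM, while the other 6 libraries of that group lay between 3.55 and 3.65. The gap took up 0.65 of the group's range, above Dixon's critical value of 0.568 for 7 samples, and chance flags about 1 in 20 sets. The same library had the highest level of 7 of the 10 members and the highest sums of monocyte, neutrophil and T and NK cell markers. Whether these are related was not tested.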

How the results depend on the processing

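For old anti-miR-mix against young, 9 members passed under all 11 other settings and with each library left out, with 30 to 36 genes of the 13 lists (33) and 892 to 1531 of all genes (1196). The treatment counts were unstable. Members called (2) became 4 with DESeq2, 1 with 2 groups only, 6 with the replicate block, 0 with processing group as a factor, 0 with old control replicates 5 and 6 as 1 library and 0 with both, the last added after seeing the data. List genes (10) became 20, 5, 19, 0, 4 and 0, and all genes (129) became 264, 48, 249, 9, 33 and 6 in that order. Leaving out 1 library gave 0 to 5 members, 1 to 17 list genes and 23 to 247 genes. There were 0 members without old control replicate 1, 2, 5 or 6 or old anti-miR-mix replicate 3, 4 or 5, 1 without replicate 2 and 5 without replicate 1 or 6 of the latter.

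For age, members called (1) became 3 with the replicate block, 5 with processing group as a factor and 2 with that factor and replicates 5 and 6 as 1, and stayed 1 with any library left out. List genes (5) became 10 with DESeq2, 3 without the filter, 10 with the block, 14 with the factor, 3 with replicates 5 and 6 as 1 and 10 with both, and 1 to 7 with 1 library left out (1 without old control replicate 3 or young replicate 4). All genes (514) became 897 with DESeq2, 323 without the filter, 305 with replicates 5 and 6 as 1 and 223 with both, and 212 to 691 with 1 library left out.

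Only Coro1a changed direction. For treatment its log2 fold change became -0.0078 with the factor and -0.0085 with replicates 5 and 6 also as 1, and ran from -0.0353 to 0.0591 with 1 library left out (below 0 without old control replicate 2 or 3 or old anti-miR-mix replicate 1 or 3). For age it ran from -0.0065 (without old control replicate 1) to 0.0520. The causes were not tested. The labels do not say that replicate numbers pair samples, and correlations of same-numbered deviations ran from -0.17 to 0.21. Old anti-miR-mix replicates 1, 4, 5 and 6 were closest to the old control of their own number, and replicates 2 and 3 were not. For old control against young this held for replicates 1 and 2, and for treated old against young only for replicate 6. Whether the numbers pair samples is not known, and the block is given only here. Median r of the members stayed at 0.85 with Spearman's coefficient or another prior count, and was 0.57 to 0.64 with group means removed. The low counts of Was limit its precision.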

Other observations

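The astrocyte, oligodendrocyte and red blood cell marker lists were compared with the members' mean z over the 19 libraries. The log2 sum of 5 astrocyte markers had an r of 0.79 (4431 to 4933 CPM in young, 4857 to 5467 CPM in old control and 4515 to 5806 CPM in old anti-miR-mix libraries). The oligodendrocyte sum had an r of 0.08 and was 6003 to 9423 CPM in young and 5242 to 6179 CPM in old control libraries. Of its 5 markers, 4 passed as lower with age, against 1.34% of all genes. The red blood cell sum had an r of -0.42.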
